A study of Mus musculus with 8 samples.

Results

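The genes described here are 10 activity-regulated immediate early genes: Fos, Fosb, Junb, Egr1, Egr2, Egr3, Arc, Nr4a1, Npas4 and Ier2. They were chosen by name, as rows of the count table whose symbol equals the gene exactly, and all 10 were found among 24078 entries. Hippocampal RNA came from 4 mice homozygous for the targeted allele Wfs1tm1Koks and from 4 wild-type mice, which are listed under the same strain name. Wfs1 encodes wolframin, a glycoprotein of the endoplasmic reticulum that is abundant in CA1 pyramidal neurons. Each animal gave 1 library, and the comparison asks whether these genes differ between homozygous and wild-type hippocampus and whether they move together from animal to animal. Mice were killed by cervical dislocation and the hippocampi were snap-frozen. Sex, age, time of day and handling before death are stated in none of the labels or notes used here.

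Immediate early genes are transcribed within minutes of calcium entry or growth factor signalling, without new protein synthesis. In hippocampal neurons, synaptic activity acts through calmodulin-dependent kinases and the MAP kinase cascade on factors already bound to DNA, above all CREB at cyclic AMP response elements and serum response factor at CArG boxes. Their products are mostly transcription factors that set off a later wave of genes, while Arc acts directly at synapses. Fos, Fosb and Junb encode subunits of the AP-1 dimer, Egr1 to Egr3 zinc finger factors, Nr4a1 an orphan nuclear receptor, Npas4 a bHLH-PAS factor of neurons, and Ier2 a small nuclear protein. On build mm10 (GENCODE M21) Fos lies at chr12:85473890-85477273, Fosb at chr7:19302696-19310051, Junb at chr8:84974484-84978718, Egr2 at chr10:67535475-67542188 and Egr3 at chr14:70077203-70082614. Arc lies at chr15:74669083-74672570, Nr4a1 at chr15:101254269-101274795, Npas4 at chr19:4984355-4990316 and Ier2 at chr8:84661331-84662852. Counts were summed over each gene symbol.

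Promoter letters were read from RefSeq windows on build GRCm38.p6, and 6 of the 10 members had a window that could be used here (Fos, Fosb, Junb, Egr2, Nr4a1 and Npas4). The 150 bases before the start are shown for Fos and Fosb, the paralogs with opposite changes described below, and for Egr2, another member that rose. Capitals mark the CRE core (TGACG, or CGTCA on the other strand), the CArG box (6 A or T letters between CC and GG), an EGR site (GCGGGGGCG or GCGTGGGCG) and a TATA box (TATAAA), each searched on both strands.
Fos, chr12:85473740-85473889, plus strand: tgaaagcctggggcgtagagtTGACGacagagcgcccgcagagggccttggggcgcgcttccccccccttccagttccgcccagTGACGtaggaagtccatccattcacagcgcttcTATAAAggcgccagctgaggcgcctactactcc
Fosb, chr7:19310046-19310195, minus strand: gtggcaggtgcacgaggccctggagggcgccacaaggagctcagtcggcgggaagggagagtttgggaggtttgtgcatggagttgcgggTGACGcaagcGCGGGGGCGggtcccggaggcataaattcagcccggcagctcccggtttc
Egr2, chr10:67537719-67537868, plus strand: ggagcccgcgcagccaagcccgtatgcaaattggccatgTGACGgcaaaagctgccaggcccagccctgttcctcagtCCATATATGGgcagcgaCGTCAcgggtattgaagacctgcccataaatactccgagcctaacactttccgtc

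In Fos the CRE core lay 129 and 66 bases before the start and the TATA box 33 bases before it. In Fosb the core lay 60 bases before the start and the EGR site 50 bases before it. The Egr2 stretch belongs to 1 of its 5 annotated starts and held a CArG box 72 bases before the start, between CRE cores. Within 250 bases upstream of a start, all 6 genes held at least 1 CRE core, against 19.8% of 27025 genes with a window. The full palindrome TGACGTCA was in none of them (1.77% of genes), nor was the AP-1 site TGACTCA (5.16%). A CArG box was found in Egr2 alone (1.62% of genes), an EGR site in Fosb and Nr4a1 (3.47%), and TATAAA in Fos (14.3%). These are matches of letters in a short window, and the core lies within the palindrome.

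Libraries held 3250949 to 6747411 counts. Wfs1 itself was at 44.6 to 61.3 CPM (a gene's count over the scaled total of its library) in wild-type mice and at 12 to 17.7 CPM in homozygous mice (log2 fold change -1.81, SE 0.16, edgeR adjusted p 2.62e-05). The 10 hippocampal neuron markers, led by the vesicular glutamate transporter gene Slc17a7 and by C1ql3, summed to 1577 to 2000 CPM in wild-type mice and to 1131 to 1529 CPM in homozygous mice, and 5 of them were called lower and 1 higher. Oligodendrocyte markers, led by Mbp, summed to 1236 to 1990 against 842 to 1050 CPM (4 of 5 lower), and astrocyte markers, led by Slc1a2 and Slc1a3, to 2846 to 3567 against 1904 to 2141 (3 of 5 lower). With the abundance trend removed 4 neuron, 3 oligodendrocyte and 0 astrocyte markers were called lower, and with the density trend removed 2, 0 and 0. Slc17a7 lost its call in both (-0.28 and -0.26). C1ql3 was called in none of these fits (-0.35 with neither trend removed). Over all genes 20.4% were called lower and 20.7% higher with neither trend removed. The share lower was 18.3% with the abundance trend removed and 18.8% with the density trend removed. Microglial markers (Csf1r, Cx3cr1; 2 of 6 lower), at 189 to 241 against 190 to 264 CPM, and endothelial markers (Flt1, Slco1a4; 2 of 6 lower, 1 higher), at 139 to 163 against 133 to 163, overlapped. So did choroid plexus markers (Ttr, Kl; 187 to 1197 against 109 to 855, 1 of 6 higher and 1 lower), striatum markers (Pde10a, Rgs9; 249 to 376 against 236 to 325, 1 of 6 higher) and blood markers (Alas2, Hbb-b1; 21.4 to 37.0 against 23.5 to 60.4, 1 higher and 1 lower of 2 tested). No marker in the table was at 0 in all libraries, and the part of cell composition in the results below was not tested. The 45S ribosomal RNA entry Rn45s held 4.99% to 6.82% of wild-type and 2.29% to 3.77% of homozygous counts, and its part was not tested either. Calls of the members were the same with 2 ribosomal RNA-like entries left out. That fit drops only those entries and cannot show what their share reflects.

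Of the 10 members, 3 rose in homozygous hippocampus (Fosb, Egr2 and Egr1), 2 fell (Fos and Arc), and 5 passed in neither direction. Over all 20478 genes tested, 20.7% were higher and 20.4% lower by the same rule (edgeR's quasi-likelihood test, Benjamini-Hochberg adjusted p under 0.05), so the shares of called members, 3 and 2 of 10, stand close to that background. The median log2 fold change of the members was 0.04, against 0.05 over all genes. The summed level of the members ranged from 240 to 310 CPM among wild-type mice and from 246 to 316 among homozygous mice. The members thus changed in both directions within a nearly level total. In bulk RNA, fewer cells expressing a gene and less of its RNA per cell cannot be told apart.

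The AP-1 subunit genes split. Fos, the classical marker of recently active neurons, stood in wild-type animals 7, 8, 9 and 10 at 19.3, 26.4, 26.0 and 27.6 CPM, and in homozygous animals 15, 16, 17 and 18 at 15.2, 13.4, 11 and 16.1 CPM. Every homozygous library lay below every wild-type library. Mean levels were 24.8 ± 3.75 CPM in wild-type and 13.9 ± 2.27 CPM in homozygous mice (SD, n = 4 each), 1.77-fold lower (log2 fold change -0.83, SE 0.17, edgeR adjusted p 0.00331).

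Fosb, whose protein also pairs with JUN proteins and whose spliced form ΔFosB is long-lived, went the other way. Its level was 22.7, 27.1, 23.7 and 28.2 CPM in wild-type mice and 44.7, 63.3, 59.0 and 51.7 CPM in homozygous mice, in the same order. The groups did not overlap, and the lowest homozygous library exceeded the highest wild-type library by a wide margin. The mean was 25.4 ± 2.63 CPM in wild-type mice and rose to 54.7 ± 8.21 CPM (log2 fold change 1.1, SE 0.14, edgeR adjusted p 0.000267), or 2.15-fold. Counts are given per gene symbol, so full-length and short Fosb forms are summed.

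Junb, a JUN family gene whose product pairs with both, was at 37.9, 31.2, 43.5 and 44.0 CPM in wild-type mice and at 26.5, 26.1, 52.0 and 37.6 CPM in homozygous mice. The homozygous libraries reached both below and above all wild-type libraries, and the means of 39.1 ± 5.96 and 35.6 ± 12.2 CPM differed by less than the spread (log2 fold change -0.15, SE 0.22, edgeR adjusted p 0.586). The sign of that value turned with library totals as the only scaling (0.04). Junb shares 173 bases of exon with Prdx2 on the opposite strand, and the strand setting of the counting is stated in none of the labels or notes used here, so some of its counts may belong to Prdx2.

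**Figure D1:**
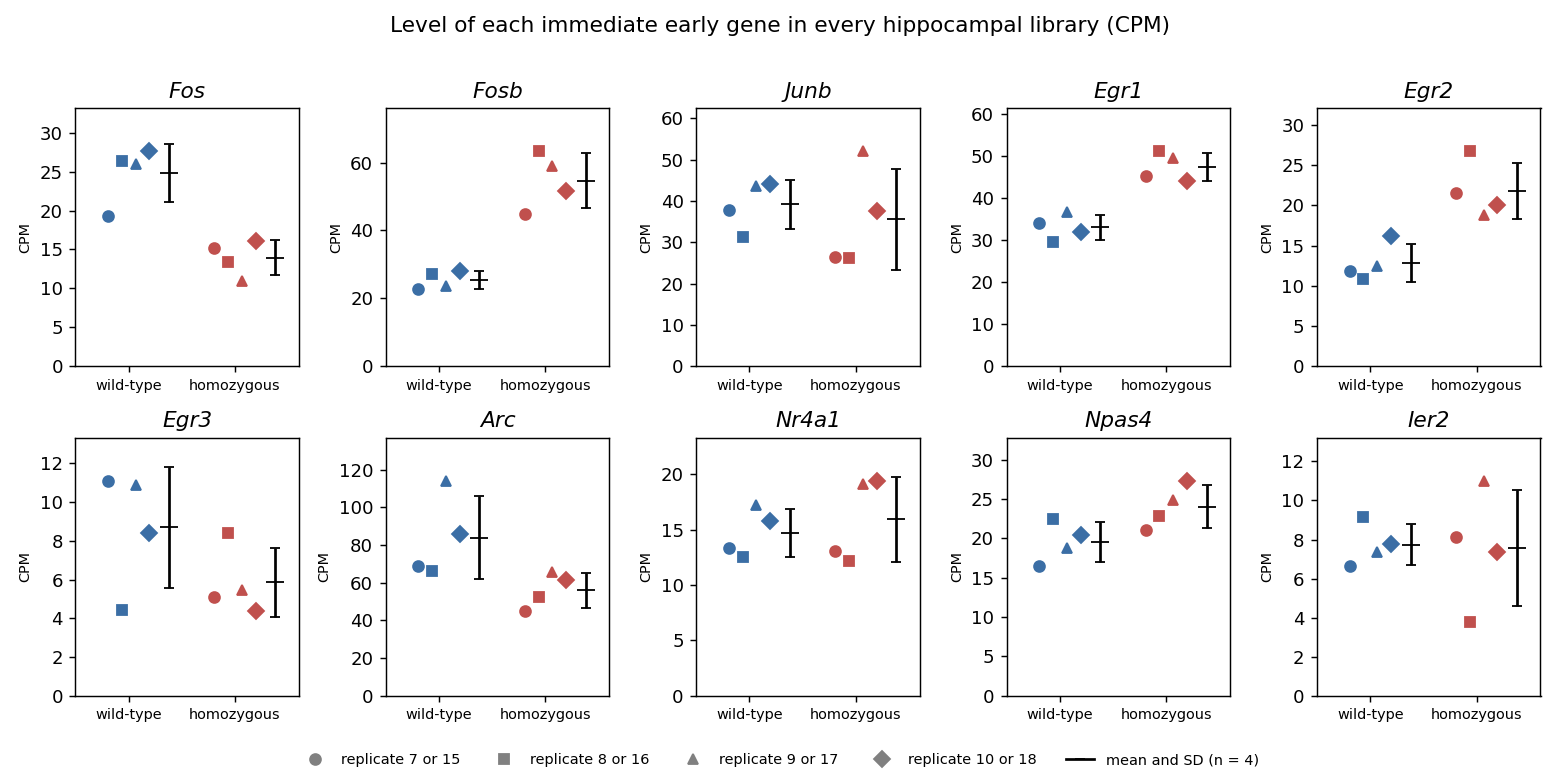
CPM (vertical axes, each starting at 0) of the 10 members in the 4 wild-type (blue) and 4 homozygous (red) libraries, 1 point per library with its symbol marking the replicate, and the mean with SD in black. Fosb, Egr1 and Egr2 have all red points above all blue ones, Fos and Arc all red points below, and the groups of the other 5 genes overlap.

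The ratio of Fosb to Fos counts within a library needs no scaling between libraries. It was 1.18, 1.03, 0.914 and 1.02 in wild-type replicates 7 to 10, close to equal counts in each animal. In homozygous replicates 15 to 18 it was 2.94, 4.74, 5.37 and 3.20. The mean ratio went from 1.03 ± 0.109 to 4.06 ± 1.18 (SD, n = 4 each), 3.93 times as high. The ratio was formed knowing that these genes moved apart, so it is given as a description with no test.

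Of the EGR genes, Egr1 and Egr2 rose and Egr3 did not pass. Egr1, the most widely used EGR marker of neuronal activity, was at 34.1, 29.5, 36.6 and 32.0 CPM in wild-type mice and at 45.2, 51.1, 49.4 and 44.0 CPM in homozygous mice, with no overlap. From a wild-type mean of 33.0 ± 3.01 CPM it rose to 47.5 ± 3.37 CPM (log2 fold change 0.52, SE 0.12, edgeR adjusted p 0.00548). The spread within each genotype was small, and every homozygous library was higher.

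Egr2, known both as an activity-induced factor and as a regulator of myelination in Schwann cells, was at 11.8, 10.8, 12.4 and 16.2 CPM in wild-type mice and at 21.5, 26.7, 18.8 and 20.0 CPM in homozygous mice. All homozygous libraries lay above all wild-type ones. The wild-type mean was 12.8 ± 2.35 CPM and the homozygous mean 21.8 ± 3.5 CPM (log2 fold change 0.76, SE 0.17, edgeR adjusted p 0.00584).

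Egr3, itself a target of earlier EGR and CREB activity, was the least abundant member per kilobase. It stood at 11.1, 4.41, 10.9 and 8.42 CPM in wild-type mice and 5.12, 8.42, 5.49 and 4.40 CPM in homozygous mice. Wild-type replicate 8 lay with the low homozygous libraries and homozygous replicate 16 with the wild-type ones, and raw counts ran from 13 to 68. The means of 8.72 ± 3.13 and 5.86 ± 1.77 CPM did not differ past the threshold (log2 fold change -0.63, SE 0.29, edgeR adjusted p 0.103, range 0.0205 to 0.255 over 18 alternatives). Without wild-type replicate 8 the value was -0.82 (adjusted p 0.0205), and without homozygous replicate 16 it was -0.85 (adjusted p 0.0397).

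Arc, the activity-regulated cytoskeleton-associated protein that drives removal of AMPA receptors from synapses, had the highest level of all members per kilobase of exon. It stood at 69.0, 66.1, 114 and 86.0 CPM in wild-type mice and at 45, 52.3, 65.6 and 61.3 CPM in homozygous mice. The groups did not overlap, although the highest homozygous and the lowest wild-type library nearly met. Its mean was 83.8 ± 21.9 CPM in wild-type mice and fell to 56.1 ± 9.23 CPM (log2 fold change -0.59, SE 0.19, edgeR adjusted p 0.0276, range 0.0155 to 0.244 over 18 alternatives). The call ended without wild-type replicate 9 (-0.40, adjusted p 0.0862), wild-type replicate 10 (-0.59, adjusted p 0.0569) or homozygous replicate 15 (-0.49, adjusted p 0.081), and with library totals as the only scaling (-0.39, adjusted p 0.107).

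The other 3 members did not pass. Npas4, a factor induced by calcium entry in neurons, was at 16.5, 22.4, 18.8 and 20.4 CPM in wild-type mice and at 21.0, 22.9, 24.9 and 27.3 CPM in homozygous mice, with overlap (log2 fold change 0.30, SE 0.15, edgeR adjusted p 0.116). It passed with library totals as the only scaling (0.50, adjusted p 0.0151) and in none of the other 17 alternatives. Nr4a1 was at 13.3, 12.5, 17.2 and 15.8 CPM in wild-type mice and at 13.1, 12.2, 19.1 and 19.4 CPM in homozygous mice (log2 fold change 0.09, SE 0.19, edgeR adjusted p 0.722). Both genotypes showed the same division for Nr4a1, a low and a high pair of animals. Ier2 was at 6.64, 9.15, 7.38 and 7.78 CPM in wild-type mice and at 8.13, 3.78, 11 and 7.34 CPM in homozygous mice (log2 fold change -0.01, SE 0.27, edgeR adjusted p 0.976), from 13 to 46 raw counts. The sign of the Nr4a1 and Ier2 values changed among the alternatives.

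The members were also refitted with a smooth trend of each library on gene abundance removed, and with one fitted to density, the count for each kilobase of exon. Fosb, Egr1, Egr2 and Fos passed in both. Fosb was 1.12 and 0.95, Egr1 0.55 and 0.49, Egr2 0.62 and 0.59, and Fos -0.94 and -0.89 on the log2 scale. Arc no longer passed (-0.48, adjusted p 0.0623, and -0.28, adjusted p 0.244), whereas Egr3 did (-0.86 in both, adjusted p 0.0429 and 0.0419). The counts of 3 higher and 2 lower thus held while Egr3 took the place of Arc. The background over all genes was 16.7% higher and 18.3% lower with the abundance trend removed, and 15.3% higher and 18.8% lower with the density trend removed. With library totals as the only scaling 4 members were higher and 1 lower, against 32.4% higher and 11.8% lower over all genes, and the median of all genes moved from 0.05 to 0.25. Groups that did not overlap were found for 18.8% of all genes with homozygous above and 18.8% with homozygous below wild-type, beside 3 and 2 of the 10 members.

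**Figure D2:**
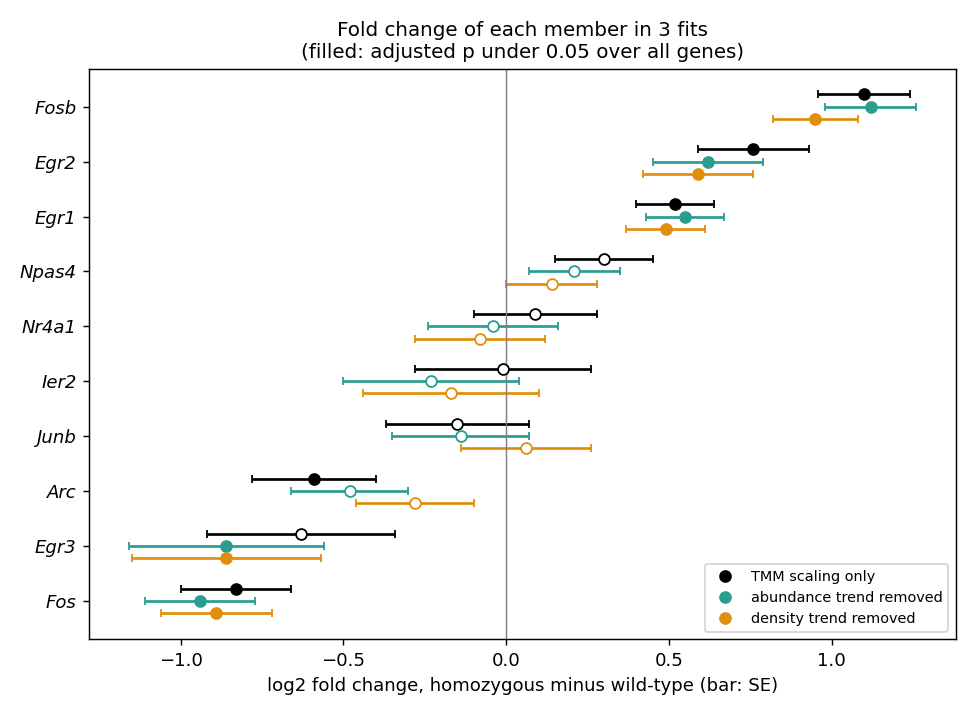
Log2 fold change with SE (horizontal axis, homozygous minus wild-type) for each member in the fit with TMM scaling only (black), with the abundance trend removed (green) and with the density trend removed (orange), with filled points for an adjusted p under 0.05. Fosb, Egr2, Egr1 and Fos are filled in all 3 fits, Arc only in black and Egr3 only in green and orange.

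Levels can be compared between genes only per length. Per kilobase of annotated exon, the wild-type order was Arc at 27.4, Junb at 17, Fos at 10.6, Egr1 at 7.37, Ier2 at 5.09, Npas4 at 4.72, Nr4a1 at 4.19, Fosb at 4.08, Egr2 at 3.77 and Egr3 at 1.98 CPM per kilobase. From Ier2 to Egr2 neighbours differed by less than their SDs (0.421 to 0.693), while Arc, Junb, Fos and Egr1 stood apart by more than that. In homozygous libraries the order was Arc at 18.3, Junb at 15.5, Egr1 at 10.6, Fosb at 8.76, Egr2 at 6.40, Fos at 5.92, Npas4 at 5.81, Ier2 at 4.96, Nr4a1 at 4.54 and Egr3 at 1.33. There Arc and Junb, and Junb and Egr1, were neighbours closer than the larger of their SDs, as were successive neighbours from Egr2 to Nr4a1. By annotated exon length, Fos went from the third to the sixth place and Fosb from the eighth to the fourth.

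To place these levels, 139 genes for keratins, taste receptors, Mrgpr receptors and cytochrome P450 family 2 enzymes, families best known from skin, tongue, liver and sensory ganglia, served as a reference, chosen with earlier results of these data known. Their 10th to 90th percentile was 1.71 to 7.47 CPM per kilobase in wild-type mice and 2.21 to 8.32 in homozygous mice. Only Arc, Junb and Fos lay above that range in wild-type, and Arc, Junb, Egr1 and Fosb in homozygous libraries. Fos was thus above the range in wild-type and within it in homozygous libraries, and Fosb and Egr1 the reverse. Egr1 in wild-type (7.37 ± 0.672) and Fosb in homozygous libraries (8.76 ± 1.31) lay within 1 SD of the upper limit. Egr2, which rose, lay within it in both genotypes, as did Npas4, Nr4a1 and Ier2, and Egr3 lay within it in wild-type and below it in homozygous libraries. The reference genes had a median log2 fold change of 0.37, with 32 called higher and 7 lower. The exon length of Fosb (6.24 kilobases) includes a retained intron, and per kilobase of the longest coding transcript (3.78 kilobases) Fosb was at 6.73 and 14.5 CPM. Measured that way all 10 members kept their place within, above or below the reference range, but their order changed. In wild-type libraries Fosb then stood above Nr4a1 (5.76), Npas4 (5.39) and Ier2 (5.09). In homozygous libraries Fosb stood above Egr1 (10.6), Junb (19.7) above Arc (18.4), and Npas4 (6.63) just above Fos (6.6).

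**Figure D3:**
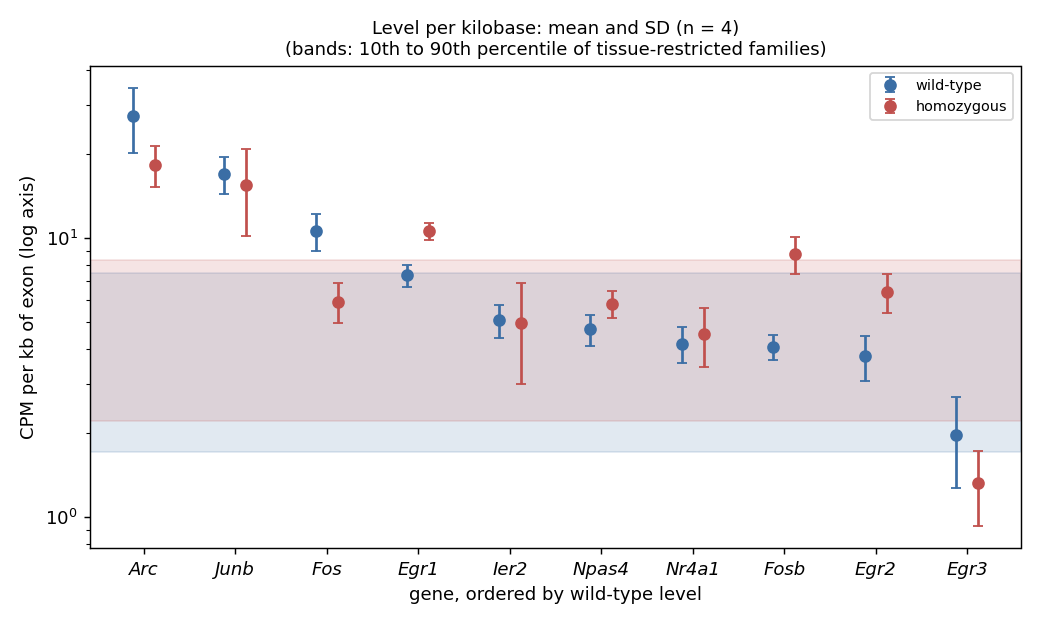
Mean level with SD (n = 4) of each member in CPM per kilobase of exon on a log axis, wild-type in blue and homozygous in red, with shaded bands for the 10th to 90th percentile of 139 genes of tissue-restricted families. Arc and Junb lie above both bands, Fos is inside the band and Egr1 and Fosb above it in homozygous libraries, Fosb by less than its SD.

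Whether the members moved together was read from the deviation of each library's log2 CPM from the mean of its own genotype. In wild-type replicates 7, 8, 9 and 10, 2, 4, 6 and 9 of the 10 members lay above their genotype mean, and in homozygous replicates 15, 16, 17 and 18, 2, 4, 7 and 6 did. Over all genes tested that share was 46.4% to 51.2% in every library. The members did not form 1 pattern. Arc, Nr4a1 and Junb shared a split into a low and a high pair, though not the order within pairs. In wild-type animals replicates 7 and 8 were lower than 9 and 10 for each of these 3 genes, and in homozygous animals replicates 15 and 16 were lower than 17 and 18. The 3 genes were singled out after the values were known, and Junb in wild-type replicate 7 deviated by only -0.03.

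For Arc these deviations were -0.24, -0.31, 0.48 and 0.07 in wild-type and -0.30, -0.09, 0.24 and 0.14 in homozygous replicates. Junb had -0.03, -0.31, 0.16 and 0.18, then -0.36, -0.38, 0.61 and 0.14. Fos followed another pattern, lowest in wild-type replicate 7 (-0.35) and homozygous replicate 17 (-0.32), the latter being the animal highest for Junb, Arc and Ier2. Fosb was highest in homozygous replicate 16 (0.22), together with Egr1, Egr2 and Egr3, while Ier2 was lowest there (-0.88, from 13 counts). Among wild-type animals Fos and Fosb were both lowest in replicate 7 and highest in replicate 10. Among homozygous animals their deviations had opposite signs in all 4, Fos at 0.14, -0.04, -0.32 and 0.23 and Fosb at -0.28, 0.22, 0.12 and -0.07. Homozygous libraries held only 38 to 86 Fos counts, so the signs of small deviations such as -0.04 and -0.07 are uncertain. As a description over 8 libraries, the Pearson correlation of a member's deviations with the mean of the other 9 was 0.88 for Arc, 0.79 for Nr4a1 and 0.77 for Junb, and between -0.20 and 0.34 for the remaining 7.

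The libraries also differed in some markers of neighbouring tissue, whose part was not tested. Striatum markers summed to 376 CPM in wild-type replicate 8, against 249 to 273 CPM in the other wild-type libraries. Most of that difference lay in Rgs9, at 177 CPM there and at 61.4 to 71.1 CPM in the other wild-type libraries. Among wild-type libraries Pde10a was lowest there (104 CPM), so the sum does not show more striatal RNA in general. Sums of choroid plexus markers differed as well. Ttr, its leading marker, was at 431, 1018, 317 and 89.8 CPM in wild-type mice and at 594, 29.0, 723 and 18.5 CPM in homozygous mice. It was lower in both wild-type libraries that were high for Arc, Nr4a1 and Junb, but among homozygous libraries it was highest in replicate 17 and lowest in replicate 18, both high for those genes. Outside all lists, the 5 genes with a mean of at least 10 CPM over the 8 libraries whose deviations over the 8 libraries were most like the mean of the members, among 15037 compared, were Uimc1 (r 0.974), the nuclear receptor gene Nr2f1 (0.966), Gm6034 (0.964), Cstf2 (0.963) and 9330175E14Rik (0.956). Their log2 fold changes between genotypes were 0.26 for Uimc1, which did not pass, -0.34 for Nr2f1, 1.11 for Gm6034, -0.50 for Cstf2 and 1.02 for 9330175E14Rik. As the highest of 15037 correlations over 8 libraries, such r values can arise in unrelated genes, and they were not tested. Gm6034 and 9330175E14Rik had wild-type means of 6.93 and 6.86 CPM and met that minimum only through the homozygous libraries. Nr2f1 was called in 2 of 8 fits with a library left out and lost its call with library totals (-0.14) and with the abundance trend removed, and Cstf2 lost its call with library totals (-0.31).

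**Figure D4:**
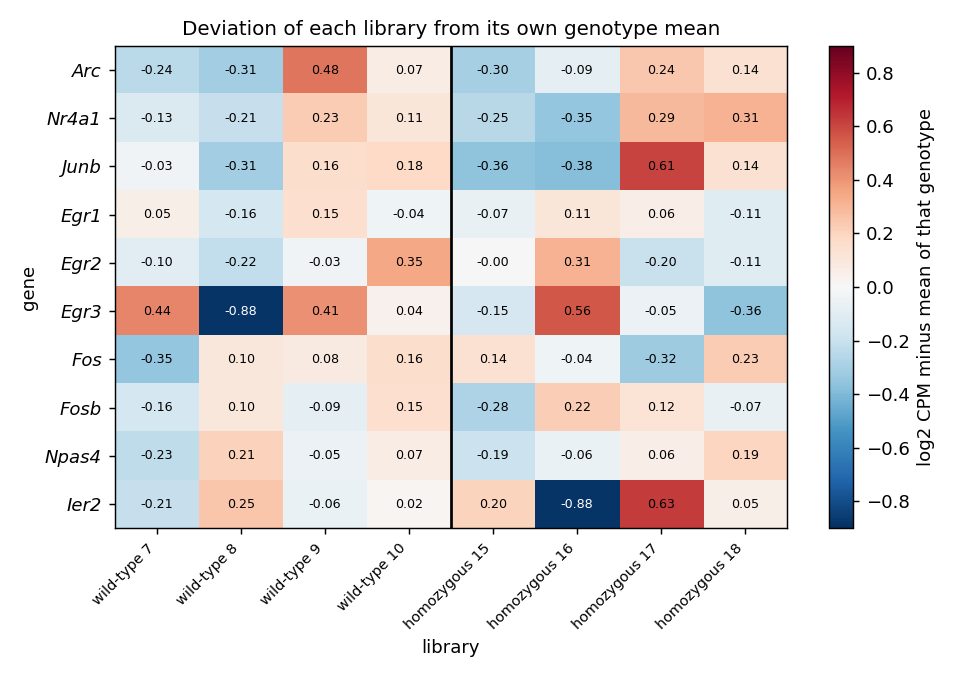
Deviation of log2 CPM from the mean of its own genotype for each member (rows) in each library (columns), red above and blue below, with the value in each cell and a black line between genotypes. The top 3 rows (Arc, Nr4a1, Junb) are blue in wild-type 7 and 8 and homozygous 15 and 16 and red in the other 4 libraries, and the lower rows follow other patterns.

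Egr1 and Arc, which respond to the same stimuli in many neurons, moved apart between genotypes as well. The ratio of Egr1 to Arc counts was 0.494, 0.446, 0.321 and 0.372 in wild-type replicates 7 to 10 and 1.0, 0.978, 0.753 and 0.718 in homozygous replicates 15 to 18, without overlap. Its mean was 2.11 times as high in homozygous libraries. A ratio of raw counts keeps any trend on abundance or density, and Arc was not called with either trend removed (-0.48 and -0.28). Fos and Arc, the members that fell, kept overlapping ratios of 0.228 to 0.400 and 0.167 to 0.337. These ratios too were chosen after values were known.

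**Figure D5:**
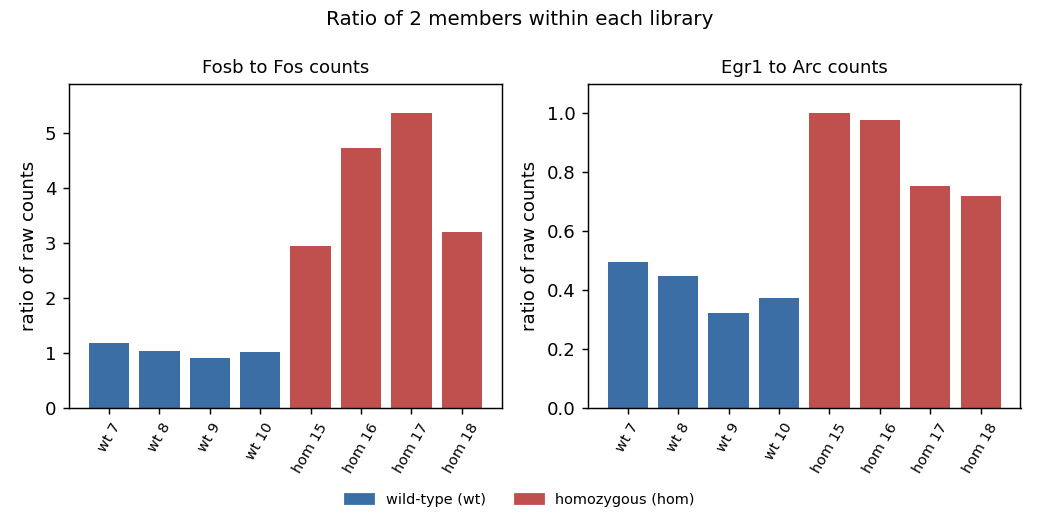
Ratio of raw Fosb to Fos counts (left) and of raw Egr1 to Arc counts (right) in each library, as bars from 0, wild-type in blue and homozygous in red. The homozygous bars stand at 2.94 to 5.37 and 0.718 to 1.0, all above the wild-type bars at 0.914 to 1.18 and 0.321 to 0.494.

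A list of 38 other rapid activity-induced genes gave a similarly mixed picture. All were tested, 10 rose and 4 fell, against 20.7% higher and 20.4% lower over all genes, and 24 did not pass. Their median log2 fold change was 0.05, equal to that of all genes. With library totals as the only scaling 15 were higher and 1 lower, against 32.4% higher and 11.8% lower over all genes. Those that rose with the smallest p were the small GTPase gene Arl4d, from 17.6 ± 3.46 to 43.6 ± 13.1 CPM (log2 fold change 1.33, SE 0.22, edgeR adjusted p 0.001), the transcription factor gene Csrnp1 (0.90, SE 0.16), the adhesion gene Amigo3 (0.98, SE 0.19) and the salt-inducible kinase gene Sik1 (0.53, SE 0.12), which restrains CREB coactivators. The 4 that fell were the MAP kinase phosphatase genes Dusp6 (-0.69, SE 0.13) and Dusp1 (-0.87, SE 0.27), Ier5 (-0.46, SE 0.12) and Jun (-0.74, SE 0.21), the last encoding an AP-1 partner of Fos. Jun and Dusp1 overlapped between genotypes, and Jun was not called after removal of the density trend or with library totals (-0.54 in both). Dusp1 lost its call without homozygous replicate 15 (-0.69) or wild-type replicate 10 (-0.64) and with library totals (-0.68), and Ier5 with library totals (-0.26). The abundant polo-like kinase gene Plk2 (-0.41, SE 0.19) and the scaffold gene Homer1 (-0.16, SE 0.15) did not pass.

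Of 18 genes of the delayed wave, which carry out the later response, 6 fell and 3 rose, against 20.4% lower and 20.7% higher over all genes, and the median log2 fold change was -0.27. With library totals as the only scaling 3 were lower and 5 higher, against 11.8% lower and 32.4% higher over all genes. The secreted neuropeptide precursor gene Vgf, at 52.3 ± 6.39 CPM in wild-type mice, fell to 26.7 ± 3.43 CPM (log2 fold change -0.97, SE 0.14, edgeR adjusted p 0.000448), and so did the granin gene Scg2 (-0.79, SE 0.13), the Ras activator gene Rasgrp1 (-0.99, SE 0.20) and the sorting receptor gene Sorcs3 (-0.49, SE 0.13). The cell-cycle inhibitor gene Cdkn1a (0.68, SE 0.16), the chromatin remodelling gene Baz1a (0.55, SE 0.14) and the receptor gene Gpr3 (0.62, SE 0.19) rose. Nrn1 (-0.04, SE 0.20) and Nptx1 (-0.26, SE 0.15), the most abundant that did not pass, changed sign when either trend was removed. With the density trend removed 5 of the 18 were called, 2 higher and 3 lower, with a median of -0.07, and Vgf was lower (-0.84). Rasgrp1 and Gpr3 lost their calls on removal of either trend, Scg2 and Baz1a on removal of the density trend, and Sorcs3 on removal of the abundance trend and with library totals (-0.28). Gpr3 also lost it without homozygous replicate 16 (0.41) or wild-type replicate 7 (0.59) or 8 (0.56).

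Upstream genes, the kinases, phosphatases, channels and resident factors that regulate immediate early genes in either direction, numbered 37. Of these 14 fell and 5 rose, against 20.4% lower and 20.7% higher over all genes, with a median log2 fold change of -0.23. With library totals as the only scaling 9 were lower and 9 higher, against 11.8% lower and 32.4% higher over all genes. The calcineurin regulatory subunit gene Ppp3r1, at 745 ± 107 CPM in wild-type mice, fell to 407 ± 26.9 CPM (log2 fold change -0.87, SE 0.15, edgeR adjusted p 0.00126), as did the MAP kinase kinase genes Map2k1 (-0.63, SE 0.12) and Map2k2 (-0.86, SE 0.17) and the serum response factor partner gene Elk3 (-0.81, SE 0.16). The CREB family genes Creb1 (0.45, SE 0.15) and Atf1 (0.60, SE 0.16), the CREB coactivator gene Crtc3 (0.45, SE 0.11) and the kinase gene Rps6ka3 (0.45, SE 0.13) rose. Camk4 (-0.16, SE 0.12) and Mef2c (0.30, SE 0.19) did not pass. Mef2c was called higher in 3 of 18 alternatives, among them removal of the abundance trend (0.61) and library totals (0.49). Camk4 was called higher with the density trend removed (0.33). Removal of the density trend left 10 lower and 4 higher. With the abundance trend removed 5 fell and 6 rose, Ppp3r1 was no longer called (-0.28), and Map2k1 (-0.38), Map2k2 (-0.97) and Elk3 (-0.72) were. Ppp3r1 and Rps6ka3 lost their calls on removal of either trend, and Crtc3, Creb1 and Map2k1 on removal of the density trend. Creb1 was called in 2 of 8 fits with a library left out, losing its call without homozygous replicate 17 (0.32) or 18 (0.39) or any of the 4 wild-type libraries (0.42 to 0.46), and Rps6ka3 lost it without wild-type replicate 9 (0.43).

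Of 9 partners and repressors of the members, 3 fell, 1 rose and 5 did not pass, against 20.4% lower and 20.7% higher over all genes. Arnt2, the dimer partner of Npas4, was at 188 ± 11.3 CPM in wild-type mice and fell to 113 ± 5.14 CPM (log2 fold change -0.74, SE 0.11, edgeR adjusted p 0.000684). Jund, an AP-1 partner of Fos and Fosb, fell in the same fit (-0.39, SE 0.12) but lost its call on removal of either trend, with library totals (-0.19) and without wild-type replicate 7 (-0.37), 9 (-0.38) or 10 (-0.36). The retinoid X receptor genes, whose products can pair with Nr4a1, split, Rxra rising (0.66, SE 0.16) and Rxrb falling (-0.54, SE 0.12). The EGR corepressor gene Nab1 (0.20, SE 0.13) and Zfp36l1 (0.31, SE 0.15), which destabilises AU-rich mRNA, did not pass. Zfp36l1 was called higher with the abundance trend removed (0.40), the density trend removed (0.61) and library totals (0.51). Nab1 was called higher with the density trend removed (0.44) and library totals (0.40). With the abundance trend removed 2 of the partners were higher and 2 lower, against 16.7% and 18.3% over all genes. Removal of the density trend gave 3 higher and 2 lower, against 15.3% and 18.8%. With library totals as the only scaling 3 of the partners were higher and 2 lower, against 32.4% higher and 11.8% lower over all genes.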

How the data were processed

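Ribosome-depleted total hippocampal RNA was sequenced as paired 50 and 35 base reads on the SOLiD 4 platform, per the labels' protocols. The authors deposited raw counts per gene symbol. The build was mm10 per the submitters' processing notes, and the aligner, counter, annotation and strand setting are stated in none of the labels or notes used here. Of 24078 entries 58 repeat a symbol, and 20478 passed edgeR's filter on low counts (3600 did not). Library totals of 3250949 to 6747411 limit the precision of the low members.

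Counts were scaled by TMM and tested with edgeR 4.0.16 (R 4.3.3) by its quasi-likelihood test, 4 homozygous against 4 wild-type libraries, without covariates, with Benjamini-Hochberg adjustment over all genes and a threshold of 0.05. Each library is 1 animal. Alternatives used limma 3.58.1, DESeq2 1.42.0, sva 3.50.0, other scalings and filters, removal of trends by loess (span 0.3), and each library left out in turn. Deviations used log2 CPM with a prior count of 0.5. Lengths came from GENCODE M21. The script was tested on simulated data.

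The members and all gene lists were chosen with earlier results of these data known, and so were the tests, the ratios and the motifs. Named genes are the members, from each of the 4 other pathway lists up to 4 called genes per direction with the smallest p and the 2 most abundant uncalled, the 5 genes most like the members' mean, the 2 most abundant of each marker list, and Wfs1. The blood marker symbols Hba-a1 and Hbb-bs matched no entry, and S100a8 was below the filter. A gene that the naming rule selects from a marker list is not reported here.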

Additional observations from a re-analysis of the deposited data

Results flagged for a closer look

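Among 102 groups of 4 libraries, for the 51 genes named other than cell type markers, 4 held a library that stood apart by Dixon's limit, where chance gives about 5% of groups. None of them was a member. Arl4d was at 22.7 CPM in wild-type replicate 8, above the 15.4 to 16.2 CPM of the other wild-type libraries. Amigo3 was at 9.15 CPM in that same library, below the 13.9 to 14.7 CPM of the others. Gpr3 was at 27.9 CPM in homozygous replicate 16, above 16.8 to 17.6 CPM. Sorcs3 was at 68.4 CPM in homozygous replicate 15, above 52.6 to 55.2 CPM.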

How the results depend on the processing

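Over 18 alternatives the members gave 180 outcomes, of which 156 kept direction and call, 6 lost a call, 7 gained one and 11 changed sign, the last all in Junb, Nr4a1 and Ier2, which were never called. Fos, Fosb, Egr1 and Egr2 were called in all 18, Arc in 12 and Egr3 in 6. Members called higher numbered 3 in each alternative except library totals, with 4. Members called lower numbered 1 with library totals, 3 with 1 surrogate variable or limma-voom, and 1 to 3 with a library left out: 1 without homozygous replicate 15 or wild-type replicate 9 or 10, and 3 without homozygous replicate 16 or wild-type replicate 8. Delayed genes called fell to 5 with the density trend removed and upstream genes called to 11 with the abundance trend removed, from 9 and 19. The cause was not tested.

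Signs turned in uncalled genes. With the density trend removed Junb was 0.06, Nr4a1 -0.08, Plk2 0.03, Nrn1 0.54 (adjusted p 0.0343), Nptx1 0.12 and Camk4 0.33 (adjusted p 0.0418). With the abundance trend removed Nr4a1 was -0.04, Homer1 0.13, Nrn1 0.33, Nptx1 0.05 and Camk4 0.18. With library totals Junb was 0.04, Ier2 0.19, Homer1 0.04, Nrn1 0.15 and Camk4 0.04. Ier2 was 0.01 with 1 surrogate variable and 0.04 with limma-voom. With a library left out Nr4a1 ranged from -0.02 to 0.19, Ier2 from -0.23 to 0.19 and Nrn1 from -0.20 to 0.08. The length of the longest coding transcript was an alternative chosen after seeing the data. No paired analysis was possible because the labels give no batch, sex or litter by which animals could be paired.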
